A study of Mus musculus with 8 samples.

Results

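Among the epithelial cells of mouse tongue, 1117 of 12957 (8.62%) had at least 1 UMI (unique molecular identifier, 1 captured transcript) of 4 or more of the 7 genes Plb1, Cdo1, Upk3bl, H19, Gsta3, Efemp1 and Flrt2, and these cells are called members here. They were selected on measured values. From the 42550 cells of 8 libraries, 25199 were kept that had 1000 to 5500 detected genes, no more than 30000 UMIs and a mitochondrial share of UMIs up to 7%, and the epithelial gate then required no Ptprc UMI and at least 0.5% of UMIs from Krt5, Krt14, Krt15, Krt13 and Krt6a together. The libraries came from tongue epithelium 15 days after transgene induction, as sorted viable single cells, 2 libraries for each of 4 groups. N mice carried Krt14-CreERT and LSL-rtTA, E mice carried tetON_E6-E7 in addition, Y mice carried tetON_YAP1S127A in addition, and EY mice carried both tetON transgenes. According to the study's methods every group, controls included, also had an H2B-GFP reporter and received tamoxifen and doxycycline, so recombination was driven from the Krt14 promoter in all of them. The mice were adult littermates, and the title of N2 names more than 1 animal, so that library may be a pool.

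YAP is the transcriptional co-activator at the end of the Hippo pathway, it acts through TEAD factors, and the S127A change removes a phosphorylation site by which the pathway keeps it in the cytoplasm. E6 and E7 of human papillomavirus act on the p53 and RB tumor suppressor pathways. In stratified tongue epithelium, basal cells carry Krt5 and Krt14, and Krt13 and Krt4 are keratins of the layers above. The 7 genes used for selection have unrelated roles. Plb1 encodes a membrane phospholipase, Cdo1 is cysteine dioxygenase (the entry step from cysteine towards taurine), Gsta3 is an alpha-class glutathione transferase, H19 is an imprinted long non-coding RNA, Efemp1 encodes the extracellular matrix protein fibulin-3, Flrt2 encodes a transmembrane ligand of UNC5 and latrophilin receptors, and Upk3bl encodes a uroplakin-like protein.

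Regions around annotated starts of these genes are shown because the members were picked on their joint detection in tongues with an active partner of TEAD factors. RefSeq windows from 250 bases before to 50 after an annotated start (GRCm38.p6) were matched for 5 of the 7 genes, with 2 windows for Plb1. In the windows printed here, capitals mark matches on either strand to GGAATG (a TEAD motif), TGANTCA (an AP-1 motif) or TGACNNNGC (the core of the antioxidant response element), which were picked after the windows had been read. They lie at chr5:32238834-32239133 for the first of the 2 Plb1 starts, chr1:21240335-21240634 for Gsta3 and chr11:28852955-28853254 for Efemp1, all on the plus strand. Both Plb1 windows lie inside the annotated gene (chr5:32232708-32366520), at internal starts, and not upstream of it.
Plb1: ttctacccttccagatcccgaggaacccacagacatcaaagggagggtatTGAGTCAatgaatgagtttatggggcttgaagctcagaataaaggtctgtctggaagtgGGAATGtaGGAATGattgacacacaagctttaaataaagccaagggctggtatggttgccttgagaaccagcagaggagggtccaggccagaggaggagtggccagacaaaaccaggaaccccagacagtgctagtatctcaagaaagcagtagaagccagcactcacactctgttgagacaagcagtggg
Gsta3: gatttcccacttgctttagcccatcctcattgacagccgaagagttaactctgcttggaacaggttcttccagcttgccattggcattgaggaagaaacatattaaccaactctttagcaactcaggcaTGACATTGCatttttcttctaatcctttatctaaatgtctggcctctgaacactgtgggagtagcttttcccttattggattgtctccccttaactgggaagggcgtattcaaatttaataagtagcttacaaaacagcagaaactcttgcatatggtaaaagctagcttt
Efemp1: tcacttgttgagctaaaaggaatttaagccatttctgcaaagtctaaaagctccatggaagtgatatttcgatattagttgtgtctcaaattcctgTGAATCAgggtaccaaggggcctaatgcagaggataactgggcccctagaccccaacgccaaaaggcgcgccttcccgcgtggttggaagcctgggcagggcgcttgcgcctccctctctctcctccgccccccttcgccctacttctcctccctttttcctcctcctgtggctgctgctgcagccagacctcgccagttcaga
The Plb1 window held 2 copies of the TEAD motif and 1 of the AP-1 motif, the second Plb1 window held 1 TEAD motif, Efemp1 held 1 AP-1 motif and Gsta3 held 1 antioxidant response element. The Upk3bl and Flrt2 windows held none of the 3. The Upk3bl window (chr5:136057017-136057316) also lies inside its annotated gene (chr5:136054492-136064326), so the region upstream of that gene was not searched. Of 32851 windows of the same length, 14.7% held the TEAD motif, 7.81% the AP-1 motif and 12.4% the antioxidant response element, so a match is common, and whether any factor binds there was not tested.

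Members were found in every library, but in very different shares. They made up 1.33% of gated cells in N1 (46 cells), 2.65% in N2 (11 cells), 0.345% in E1 (14 cells) and 0.542% in E2 (3 cells). The Y libraries held 23.3% in Y1 (300 cells; exact 95% interval 21.0 to 25.7%) and 51.7% in Y2 (518 cells; 48.6 to 54.9%). The EY libraries held 8.24% in EY1 (14 cells; 4.58 to 13.4%) and 10.4% in EY2 (211 cells; 9.11 to 11.8%). The 4 groups did not overlap, and the mean share (± SD, n = 2 libraries each) was 0.444% ± 0.139 for E mice, 1.99% ± 0.931 for N mice, 9.32% ± 1.54 for EY mice and 37.5% ± 20.1 for Y mice. Y mice contributed 73.2% of all members and EY mice 20.1%. The cells are therefore not particular to mice with active YAP alone, and they are named here by the selection rule. The shares describe the selection, which was built on genes seen high in Y, and were not tested. The intervals cover counting error only.

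**Figure D1:**
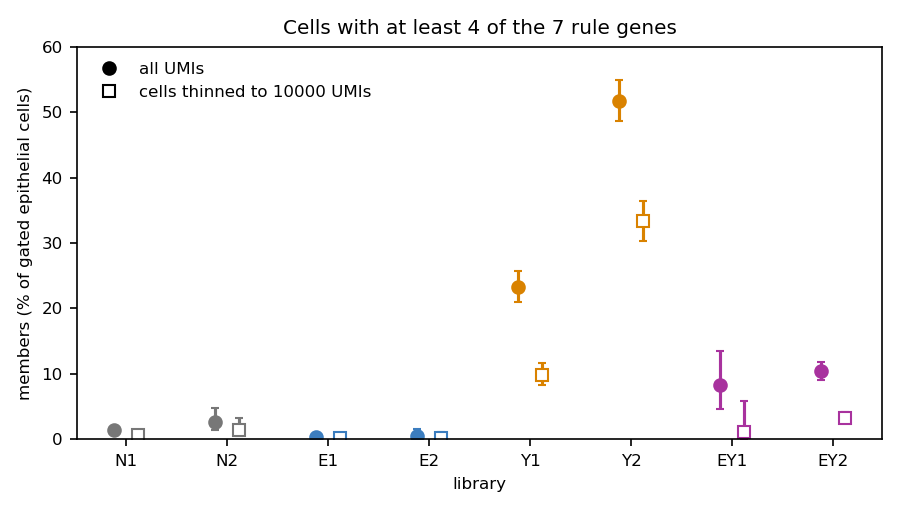
Members as a percentage of gated epithelial cells in each of the 8 libraries, with exact 95% binomial intervals. Filled points use all UMIs (Y1 23.3%, Y2 51.7%, EY1 8.24%, EY2 10.4%); open squares use cells thinned to 10000 UMIs, where Y2 (33.3%) and Y1 (9.85%) remain the highest.

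Depth enters the rule, because a gene is more easily detected in a deeper cell. Members had a higher median UMI number than the other gated cells in 7 of 8 libraries, for example 22500 against 17481 in Y1, 21186 against 18760 in Y2 and 25531 against 10724 in EY1. After thinning each cell to 10000 UMIs, and leaving out shallower cells, the share was 9.85% in Y1 and 33.3% in Y2, with 1.08% in EY1, 3.20% in EY2 and at most 1.37% in the N and E libraries. The order of Y2, Y1 and EY2 was kept, but EY1 fell below N2. At 2000 UMIs members were left only in Y1 (0.388%), Y2 (1.80%) and EY2 (0.0987%). Without the upper limits on genes and UMIs the EY1 share rose to 31.2% of 481 gated cells, beside 35.5% in Y1, 59.9% in Y2 and 13.6% in EY2, so the distance of EY1 from Y1 rests on those limits.

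The cells just outside and just inside the cutoff were close in depth. In all, 327 cells of Y1 and 209 of Y2 had exactly 3 of the 7 genes, at median depths of 19377 and 20100 UMIs, and 189 and 235 cells had exactly 4, at 21912 and 20492 UMIs. Over all libraries, 1337 cells had 3 of the genes, 671 had 4, 326 had 5, 113 had 6 and 7 had all of them. All 7 of those last cells came from Y2. The number falls off without a gap, so the cutoff divides a range. Free RNA was small for these genes. Among Ptprc-positive cells below the keratin limit, no cell of 7 libraries had 4 of the 7 genes, and 1 of 1111 did in Y2 (0.0900%). For scale, 0 of 3835 such cells in Y1 allows a share of up to 0.0782%. These cells were shallower, with medians of 3373 to 10871 UMIs. Scrublet, a doublet caller, marked 0 to 1.10% of the filtered cells of a library and 2 of the 1117 members; below 0.5% in 4 libraries it is of little use. Each pair of libraries shared 2 to 19 cell barcodes.

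The targeted gene was measured first. In all gated cells Yap1 stood at 35.1 and 40.0 CPM (UMIs per 1000000 UMIs of the summed cells) in N1 and N2, at 32.8 and 47.8 in E1 and E2, at 211 and 452 in Y1 and Y2, and at 216 and 166 in EY1 and EY2. The libraries labelled with the YAP1S127A transgene were all above the other 4. Whether the counted Yap1 reads come from the transgene or the endogenous gene (chr9:7931999-8004596, minus strand, GRCm38) cannot be told apart in these tables.

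Plb1 (chr5:32232708-32366520) was the rule gene most often detected, with a UMI in 89.3% of members. Its level over all gated cells was 20.1 and 29.6 CPM in N, 16.6 and 21.3 in E, 145 and 363 in Y, and 93.3 and 128 in EY. No YAP1S127A library overlapped the N or E libraries. Efemp1 (chr11:28853204-28926743) was detected in 84.4% of members and stood at 60.7 and 77.8 CPM in Y, against 29.3 and 20.9 in EY and 12.9 to 21.5 in N and E. The EY2 value lay inside the range of the N and E libraries. Flrt2 (chr12:95692226-95785215) was detected in 72.6% of members, at 33.6 and 86.8 CPM in Y, 29.3 and 25.0 in EY and 5.62 to 9.26 in the other 4 libraries.

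Gsta3 (chr1:21240589-21265661), in 75.4% of members, stood at 49.0 and 97.5 CPM in Y, 51.7 and 25.7 in EY and 8.59 to 17.6 in N and E. H19 (chr7:142575529-142578143), in 70.6% of members, stood at 109 and 303 CPM in Y and 47.7 and 86.9 in EY, with 54.1 and 47.0 in N and 23.4 and 29.1 in E. H19 was thus as low in EY1 as in N. Upk3bl (chr5:136054492-136064326) was detected in 35.7% of members, at 25.3 and 57.1 CPM in Y, 21.2 and 19.3 in EY and 1.65 to 4.12 elsewhere. Cdo1, on chromosome 18, was the least often detected, in 23.3% of members. It stood at 14.1 and 14.9 CPM in Y, at 6.93 in EY1 and at 1.97 in EY2, the last inside the N and E range of 1.40 to 3.54. These levels were used to pick the genes and were not tested.

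**Figure D2:**
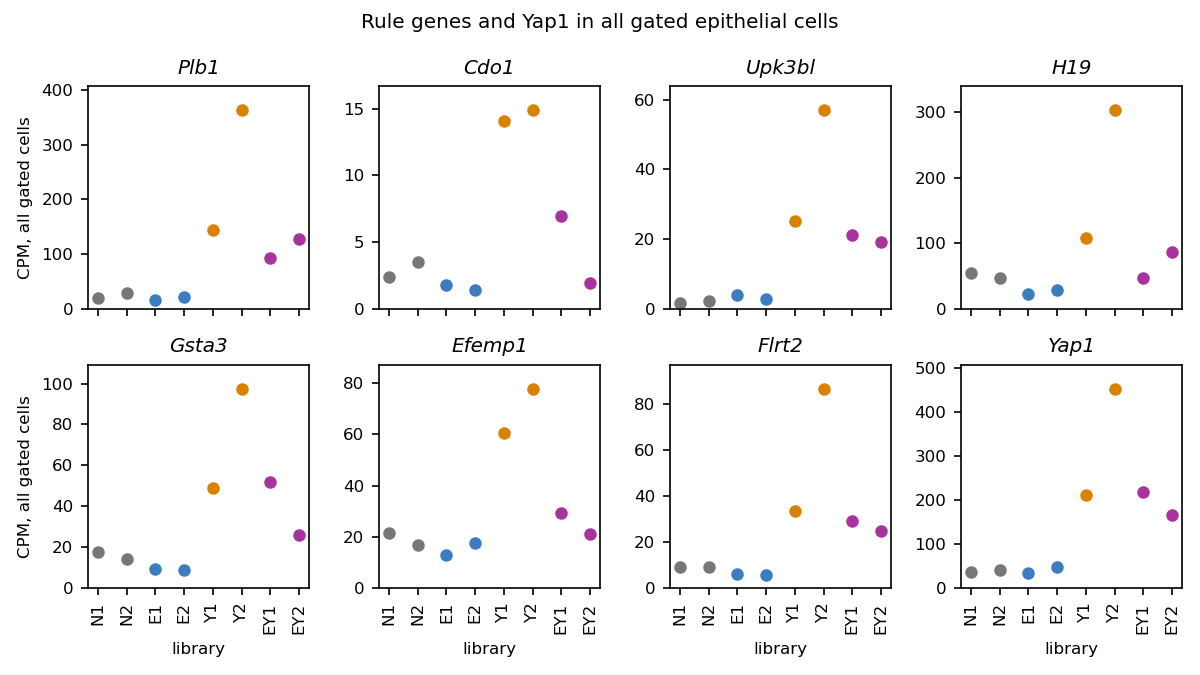
Level in CPM over all gated epithelial cells of the 7 rule genes and of Yap1, 1 point per library on a linear axis from 0. Y2 is the highest library for each gene, and Cdo1 in EY2 (1.97 CPM) lies among the N and E libraries.

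The combination of genes was loose. The commonest was Plb1, Gsta3, Efemp1 and Flrt2 in 128 members (11.5%), followed by Plb1, H19, Gsta3 and Efemp1 in 120 members (10.7%) and these 5 genes together in 103 (9.22%). To see whether a gene marks the same cells as the others, each gene was looked up in gated cells that held at least 3 of the other 6. In Y2, Gsta3 was detected in 68.0% of such cells and in 34.3% of the rest, Efemp1 in 68.9% and 33.3%, and Cdo1 in 20.3% and 5.61%. In Y1 these gaps were narrower, with Gsta3 at 52.7% and 39.1% and Cdo1 at 14.9% and 8.30%. In EY2 Gsta3 was at 29.7% and 24.7% and Cdo1 at 1.93% and 2.49%, while Efemp1 was at 37.7% and 24.1%, beside 60.8% and 47.3% in Y1, and Flrt2 was at 36.0% and 26.8%. Among these 3 libraries the gap was widest in Y2 for every rule gene except H19, for which it was 57.4% and 48.3% in Y2 and 41.8% and 31.3% in Y1. Cells with 3 of the other genes were also deeper, for Gsta3 at a median of 20946 against 18431 UMIs in Y2.

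Yap1 itself was not part of the rule, and its level followed the number of rule genes detected per cell in the Y libraries. In Y2 it was 42.6 CPM in cells with none of the 7 genes, 96.4 with 1, 304 with 2, 509 with 3, 512 with 4, 540 with 5 and 610 with 6. In Y1 it went from 110 CPM with none to 268 with 6, and in EY2 from 135 with none to 203 with 5. In N1, N2, E1 and E2 it lay between 29.6 and 51.5 CPM in every class of at least 20 cells. Cells of Y2 with none of the genes thus had the Yap1 level of the N libraries. Across the cutoff, from 3 to 4 genes, Yap1 was 233 and 230 CPM in Y1 and 509 and 512 in Y2, so members and the cells just outside did not stand apart in it. These are classes of cells within a library, and they are given as a description.

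**Figure D3:**
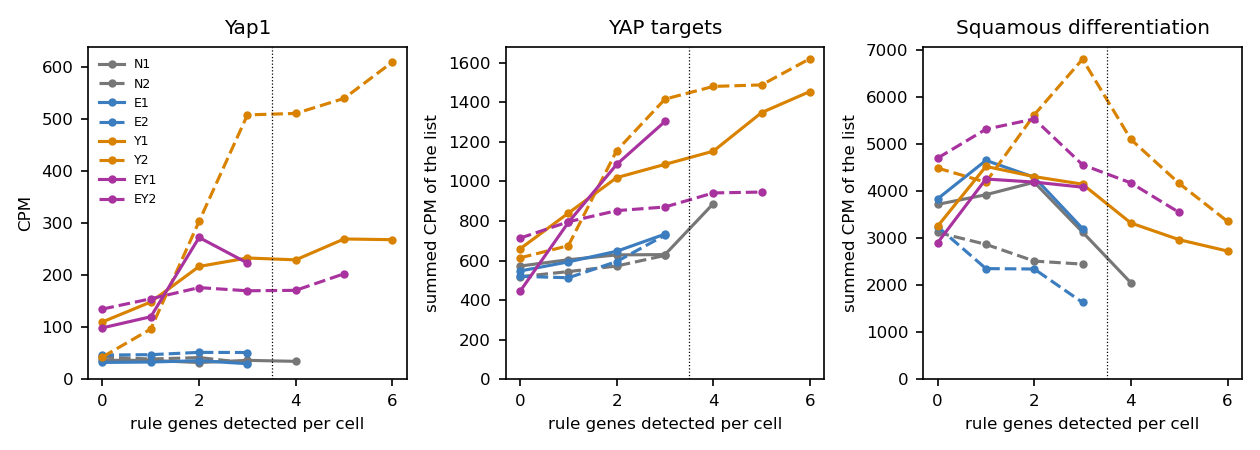
Yap1 (CPM), the summed CPM of 22 YAP target genes, and the summed CPM of 18 squamous differentiation genes in gated cells grouped by how many of the 7 rule genes they held, 1 line per library, classes of at least 20 cells. The dotted line marks the cutoff between 3 and 4. Yap1 climbs from 42.6 to 610 CPM in Y2 and stays between 29.6 and 51.5 CPM in the N and E libraries.

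The targets of YAP were summed in the same classes. The summed level of 22 target genes in Y2 was 613 CPM in cells with no rule gene and 1622 CPM in cells with 6, and in Y1 it was 659 and 1455 CPM. It was also higher in N1, from 572 CPM with none to 888 with 4, and with 3 genes against none in N2 (626 against 518 CPM), E1 (734 against 547) and E2 (728 against 520). In the same classes Yap1 was 34.2 against 36.1 CPM in N1, 31.2 against 42.5 in N2, 29.6 against 32.1 in E1 and 51.2 against 46.3 in E2, so in N1, N2 and E1 the target sum was higher while Yap1 was not. Between members and the other gated cells it was 1239 against 970 CPM in Y1, 1508 against 1147 in Y2, 945 against 826 in EY2 and 853 against 600 in N1. Of 11 target genes with at least 20 CPM, 8 were higher in members of both Y libraries and none was lower in both, beside 2391 higher and 1018 lower of 4977 genes of that level. Amotl2, which encodes a YAP-binding angiomotin, was at 65.6 against 42.8 CPM in Y1 and 150.1 against 87.7 in Y2. Ccn1, a secreted matricellular protein, was at 258 against 215 CPM and 232 against 155. F3, tissue factor, was higher only in Y1, at 105 against 68.1 CPM, and stood at 123 against 137 in Y2.

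Members were then set against the other gated cells of the same mice. Of 2385 genes with at least 50 CPM in members or rest of both Y libraries, 7 (0.294%) were at least 1.5-fold higher in members of both and 21 (0.881%) at least 1.5-fold lower, while 0 were at least 2-fold higher and 12 at least 2-fold lower in both. Since cells were sorted by expression, this comparison has no test. Wnt7b, a Wnt ligand, led the higher genes, at 70.5 CPM in members against 38.8 in the rest of Y1, 119 against 65.1 in Y2 and 67.8 against 45.2 in EY2. Other Wnt ligands were among the 20 highest. Wnt4 was at 822 against 494 CPM in Y1 and 864 against 542 in Y2, and Wnt10a was at 207 against 154 and 193 against 130. All of these ligands also ran higher in members of EY2. Tpm1, a tropomyosin of actin filaments, stood at 581 against 368 CPM in Y1 and 631 against 305 in Y2. Cav1, the coat protein of caveolae, stood at 82.5 against 56.2 and 116 against 47.2. The Fgfr3 receptor was at 133 against 91.5 and 156 against 91.0. Fads2 (a fatty acid desaturase), Tmem64, Ahnak2, Vsnl1, H60c (a ligand of the NKG2D receptor), Htra1 (a secreted serine protease), Anxa3, Myo1c, Myadm, Cdk6, S100a6 and Tmem176a were also on the list, with log2 ratios from 0.45 to 0.90 in Y1 and from 0.42 to 0.84 in Y2. In N1, 16 of the 20 had a positive ratio as well, but many were small. They ran from -0.27 (Cdk6) to 1.22 (Amotl2), with 0.09 for Wnt4, beside a median of 0.02 over all genes of 20 CPM or more.

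The lower genes had larger ratios, and several belong to keratinocyte differentiation. Sprr1a, a cornified envelope precursor, was at 4.71 CPM in members against 62.6 in the rest of Y1, 5.67 against 108 in Y2, 12.8 against 54.2 in EY2 and 4.89 against 38.4 in N1. Krt6b was at 10.5 against 97.7 CPM in Y1 and 7.59 against 53.4 in Y2, and Cnfn (cornifelin) at 48.3 against 157 and 123 against 612. Krtdap, Calm4, Krt24 and the protease gene Asprv1 were lower in the same way, and so was Fabp5, a fatty acid binding protein, at 856 against 2177 CPM in Y1 and 679 against 2306 in Y2. Of 13 squamous differentiation genes at 20 CPM or more, 11 were lower in members of both Y libraries and 1, Krt4, was higher. Over all 4977 genes of that level, 1018 were lower and 2391 higher in both. The summed list stood at 3157 against 4179 CPM in Y1, 4401 against 5817 in Y2, 4101 against 5121 in EY2 and 2088 against 3852 in N1. The same direction thus held in all 4 libraries with at least 20 members, N1 included. Among the libraries with fewer members it held in E1 (2615 against 4138 CPM) and E2 (2137 against 2624). It was reversed in N2 (3325 against 2819 CPM) and EY1 (4311 against 3938). By number of rule genes the list peaked below the cutoff, at 6797 CPM with 3 genes in Y2, and was 3350 CPM with 6.

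Other genes among the 12 lowest were Pappa, Dcn and the hemoglobin genes. Hbb-bs was at 14.7 against 195 CPM in Y1 and 99.9 against 601 in Y2, and Hba-a1 followed it, which are transcripts of red blood cells. Hbb-bs was nevertheless found in nearly the same share of cells, 26.7% of members and 25.9% of the rest in Y1. Dcn, which encodes decorin and is on the fibroblast list, was at 389 against 961 CPM in Y1 and 212 against 491 in Y2. Dcn was found in 40.3% of members and 59.6% of the rest in Y1, and in 38.8% and 42.0% in Y2. The other 5 fibroblast genes (Col1a1, Col1a2, Col3a1, Lum and Pdgfra) summed to 0 CPM in members of Y1, 3.38 in Y2 and 1.42 in EY2, but to 147 CPM in members of N1, where 2 of 46 cells held them. In the rest, where Dcn was higher, these 5 genes summed to 0.229 CPM in Y1, 1.14 in Y2, 1.28 in EY2 and 3.43 in N1. Lists for mesothelial, endothelial, melanocyte or glia, and taste cells summed to at most 1.22 CPM in members of N1, Y1, Y2 and EY2. Gland or duct genes summed to 17.1 to 134 CPM in members of these libraries and 69.4 to 176 in the rest, immune genes to 14.7 to 83.7 and 44.3 to 115, and muscle genes to 13.0 to 29.1 and 8.70 to 18.7. The part of red cell or fibroblast RNA in the member values was not tested.

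**Figure D4:**
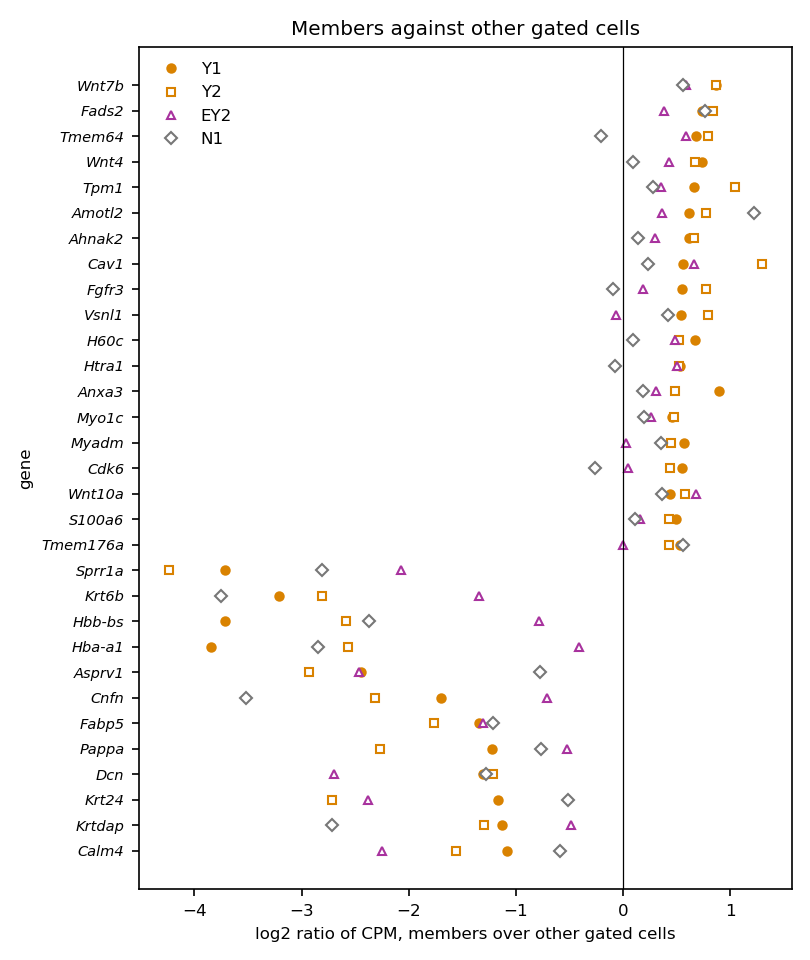
Log2 ratio of CPM in members over the other gated cells of the same library for the highest and the 12 lowest genes described here, chosen by the smaller ratio of Y1 and Y2; symbols mark Y1, Y2, EY2 and N1, and 0 means no difference. The higher genes reach at most 1.30 on this scale (Cav1 in Y2), while Sprr1a reaches -4.24 in Y2.

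Among the remaining lists, all 12 genes of basal adhesion and fate had 20 CPM or more, and 8 were higher and 1, Trp63, lower in members of both Y libraries, with median log2 ratios of 0.12 in Y1 and 0.11 in Y2 beside 0.06 and 0.05 over all genes. Dst (dystonin, a hemidesmosome linker) was at 613 against 565 CPM in Y1 and 671 against 493 in Y2. Of 11 genes of G1/S, 10 were higher and none lower in members of both. Their medians were 0.49 in Y1, 0.26 in Y2 and 0.75 in N1. A G1/S example is Mcm3, a subunit of the replicative helicase, at 46.0 against 31.2 CPM and 82.1 against 61.5. Of 13 genes of G2/M, 10 were higher and none lower, with medians of 0.11 in Y1, 0.27 in Y2 and 0.99 in N1. The summed G2/M level was nearly equal in Y1, at 1572 CPM in members against 1570, and 2276 against 1855 in Y2. Over all 4977 genes of 20 CPM or more, 2391 were higher and 1018 lower in both. After thinning to 2000 UMIs, 22.3% of members and 16.0% of the rest had at least 2 G1/S UMIs in Y1, 40.5% and 31.3% in Y2, 71.1% and 64.0% in EY2, and 41.3% and 16.0% in N1 (unthinned 79.7% and 69.4%, 79.9% and 72.3%, 100% and 96.9%, and 84.8% and 63.1%). For G2/M the thinned shares were 35.3% and 36.0% in Y1, 50.6% and 41.8% in Y2, 89.1% and 82.4% in EY2, and 52.2% and 37.4% in N1.

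The pathways around the rule genes differed from each other. Around Cdo1, 5 of the 11 listed cysteine and taurine genes reached 20 CPM, and 2 were higher and 1 lower in members of both Y libraries: Cth, which makes cysteine from cystathionine, was at 24.1 against 18.5 CPM in Y1 and 34.4 against 21.3 in Y2, while Tst, a sulfurtransferase, was at 72.3 against 100.8 and 66.7 against 89.8. Around Gsta3, 4 of 18 glutathione and NRF2 genes were higher and 12 lower (median log2 ratios -0.08 in Y1 and -0.07 in Y2), beside 2391 higher and 1018 lower of all 4977 genes. Around H19, all 3 imprinted network genes of that level were higher, led by Plagl1 at 39.5 against 24.6 CPM and 34.7 against 22.2. Around Efemp1, Timp3, a metalloproteinase inhibitor, was at 48.0 against 23.2 CPM and 115 against 70.3, and Fbln1 at 35.8 against 29.2 and 29.7 against 25.3. No partner of Flrt2 and no uroplakin reached 20 CPM. The 5 uroplakins summed to 2.97 CPM in members of EY1 and to at most 0.474 CPM in those of any other library. Rarg, a retinoic acid receptor, was at 85.3 against 73.8 CPM and 89.4 against 70.9. The interferon-stimulated list held 3 higher and 4 lower of 7 genes.

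The stress keratins and alarmins were mixed, with 2 of 5 genes lower in members of both Y libraries and none higher in both. Over all 4977 genes of 20 CPM or more, 1018 were lower and 2391 higher in both. S100a8, an alarmin subunit, was at 86.4 CPM in members against 55.6 in the rest of Y1, and at 3.93 against 37.9 in Y2. Krt16 was at 178 against 226 and 57.5 against 397. S100a8 and S100a9 thus had opposite directions in Y1 and Y2, while Krt16 and Krt6b were lower in members of both.

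Members overlapped only in part with other sets of gated cells that were named by their genes. Cells with at least 3 of the 7 genes Crct1, Klk12, Il24, Sprr2d, Sprr2h, Sprr2a3 and Sprr2e numbered 609, and 82 of them were members, which is 7.34% of members and 13.5% of that set, beside a member share of 8.62% over all gated cells. Cells with both Pi15 and Nes numbered 225, nearly all of them from EY2, with 16 shared, which is 1.43% of members and 7.11% of the set. Within libraries, members made up 17.1% of the first set in Y1, 35.9% in Y2 and 10.1% in EY2, none of them above the share of members in all gated cells of that library (23.3%, 51.7% and 10.4%).

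Whether members differ between genotypes was then asked with UMIs summed per library and edgeR's quasi-likelihood test. Only N1, Y1, Y2 and EY2 held at least 20 members, so that 1 residual degree of freedom carried the spread and N and EY were single libraries assumed to vary like Y. Of 11413 genes, 0 (0%) passed an adjusted p of 0.05 for Y against N, 0 (0%) for Y against EY and 0 (0%) for EY against N, although 1712, 2983 and 3248 had an unadjusted p below 0.05, and DESeq2 called 104, 146 and 367. The counts of calls therefore depend on how the spread is estimated. In the other gated cells, where all 8 libraries entered, edgeR called 0 of 12960 genes (0%) for Y against N, with 1301 at an unadjusted p below 0.05 and 307 calls by DESeq2. Yap1 was at 30.6 CPM in N1, 247 in Y1, 536 in Y2 and 187 in EY2 in this fit, which scales libraries by TMM, a log2 difference of 3.68 ± 0.659 (SE) for Y against N (edgeR adjusted p = 0.237). In the other gated cells the Yap1 difference was 2.84 ± 0.298 (edgeR adjusted p = 0.0560).

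Member values of the highest genes of each list in that fit are given as levels. Krt17, a stress keratin, was at 801 CPM in N1, 2249 and 2181 in Y and 9941 in EY2. Ldha and Pgk1, both of glycolysis, were at 400 and 192 CPM in N1, at 670 and 326 in Y1, at 1016 and 492 in Y2 and at 1550 and 778 in EY2. The order N1, Y1, Y2, EY2 was thus the same for these 2 genes, with no call. Isg15, an interferon-induced ubiquitin-like protein, was at 42.4 CPM in N1, 152 and 278 in Y and 707 in EY2. The basal genes Col17a1 and Dst were lowest in EY2, Col17a1 at 286 CPM in N1, 389 and 361 in Y and 112 in EY2, and Dst at 439, 618, 665 and 214. Top2a, a mitotic topoisomerase, was at 592 CPM in N1 against 144 and 243 in Y and 272 in EY2. The glutathione transferase Gsta4 showed a narrow range, from 485 CPM in N1 to 795 in EY2. Krt4 stood at 399 CPM in N1, 1052 and 2172 in Y and 1068 in EY2. Over lists, 16 of 20 YAP targets were higher in Y than in N (median log2 difference 0.70, beside 0.04 over all genes tested), and 0 of 16 G2/M genes (median -1.18). Medians were larger for stress keratins and alarmins (7 of 7 higher, 5.63) and fibulins (3 of 4, 1.91). They were also larger for interferon-stimulated (11 of 12, 1.73), squamous (14 of 17, 1.32) and hypoxia and glycolysis genes (13 of 14, 1.05). Glutathione and NRF2 genes were higher in 4 of 22 (-0.45) and Flrt2 partners in 2 of 5 (-0.62). S100a8, S100a9, Il1a and Il33 had no UMI in members of N1. The G2/M value rests on N1, whose members had a summed G2/M level of 3983 CPM, while the 11 members of N2, outside the fit, had 829 CPM, below Y1 (1572 CPM) and Y2 (2276 CPM).

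With the cutoff at 3 of the 7 genes all 8 libraries entered, with 34 to 727 cells each, and 20 of 10616 genes passed for Y against N (0.188%), 13 higher and 7 lower. Slpi, a secreted protease inhibitor, was at 2.92 and 1.84 CPM in N, 109 and 142 in Y and 316 and 512 in EY (log2 difference 5.56 ± 0.397 SE for Y against N, edgeR adjusted p = 0.00399). Edn1, endothelin 1, was at 5.60 and 2.76 CPM in N and 69.8 and 115 in Y, a log2 difference of 4.28 ± 0.428 (edgeR adjusted p = 0.0150). Egln3, a prolyl hydroxylase of the hypoxia response, was at 9.73 and 14.7 CPM in N and 117 and 329 in Y, and Yap1 passed too, at 34.6 and 36.8 CPM against 246 and 530. Rnf208 was at 1.70 and 3.68 CPM in N and 16.6 and 27.4 in Y. Crct1, of the cornified envelope, was at 0 and 2.76 CPM in N and at 286 and 1006 in Y. That the Y and N libraries do not overlap was a condition for naming these genes and is no separate result. The 7-gene set with Crct1 and the Sprr2 genes was lower in members (at least 4 rule genes) than in the rest. It summed to 194 against 375 CPM in Y1 and 726 against 1947 in Y2.

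The genes that fell in Y at that cutoff were Igfbp5, an IGF binding protein, at 76.2 and 57.1 CPM in N and 4.47 and 5.51 in Y (log2 difference -3.75 ± 0.292, edgeR adjusted p = 0.00409), and Sfrp1, a Wnt antagonist, at 73.5 and 138 CPM in N and 16.1 and 7.57 in Y. Has3, a hyaluronan synthase, was at 15.8 and 28.6 CPM in N and 1.02 and 0.996 in Y. Adam28 and Hspa2 fell as well. The E libraries kept the N levels for Igfbp5 and Sfrp1, with 84.3 and 71.6 CPM and 113 and 99.5 CPM, and the EY libraries were as low as Y or lower. Of these cells, 1337 have exactly 3 of the genes and are not members. Such cells are 194 of 240 in N1, 38 of 49 in N2, 90 of 104 in E1 and 31 of 34 in E2. They are 327 of 627 in Y1, 209 of 727 in Y2, 29 of 43 in EY1 and 419 of 630 in EY2. The mix of members and other cells therefore differed between the groups compared at this cutoff, and no test adjusted for it.

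At the same cutoff, 9 of 10616 genes passed for Y against EY (0.0848%), 2 higher and 7 lower in Y. Paqr5 was at 42.4 and 54.3 CPM in Y and 12.3 and 9.15 in EY. Bst2 (tetherin, interferon-induced) was at 94.6 and 110.3 CPM in Y and 302 and 292 in EY, with 19.5 and 17.5 in N and 188 and 148 in E, so that the libraries with E6-E7 stood above Y, and Y above N. Zcwpw1, a meiotic histone reader, was at 1.33 and 0.863 CPM in Y and 28.6 and 33.7 in EY, with 48.6 and 17.0 in E. Slc2a3, a glucose transporter, and H2-Q6 were the other lower genes named by the rule.

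At this cutoff of 3 genes, 1021 of 10616 genes passed for EY against N (9.62%), 487 higher and 534 lower. Hypoxia and glycolysis genes rose in 10 of 14, interferon-stimulated genes in 7 of 12 and YAP targets in 4 of 19, and none of these fell. Rsad2, an antiviral enzyme, was at 0.730 and 0 CPM in N and 61.4 and 63.7 in EY. Amotl2 was at 12.2 and 12.9 CPM in N and 72.6 and 73.6 in EY, and F3 at 12.9 and 23.0 against 278 and 68.4. Glutathione and NRF2 genes rose in 2 and fell in 6 of 22, with Gstm1 at 351 and 325 CPM in N and 73.6 and 18.9 in EY. Csad, which acts after Cdo1 on the way to taurine, fell from 26.5 and 33.2 CPM to 12.3 and 6.18. Of 4 Flrt2 partners tested 3 fell, among them Unc5b at 12.2 and 11.1 CPM in N and 5.11 and 1.98 in EY. Over all genes the median log2 difference was -0.02. In the fit on members, EY2 and N1 were single libraries. There 9 of 20 YAP targets were higher in EY than in N, with a median log2 difference of -0.16 beside 0.03 over all genes. Hypoxia and glycolysis genes were higher in 12 of 14 there, and interferon-stimulated genes in 12 of 12.

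**Figure D5:**
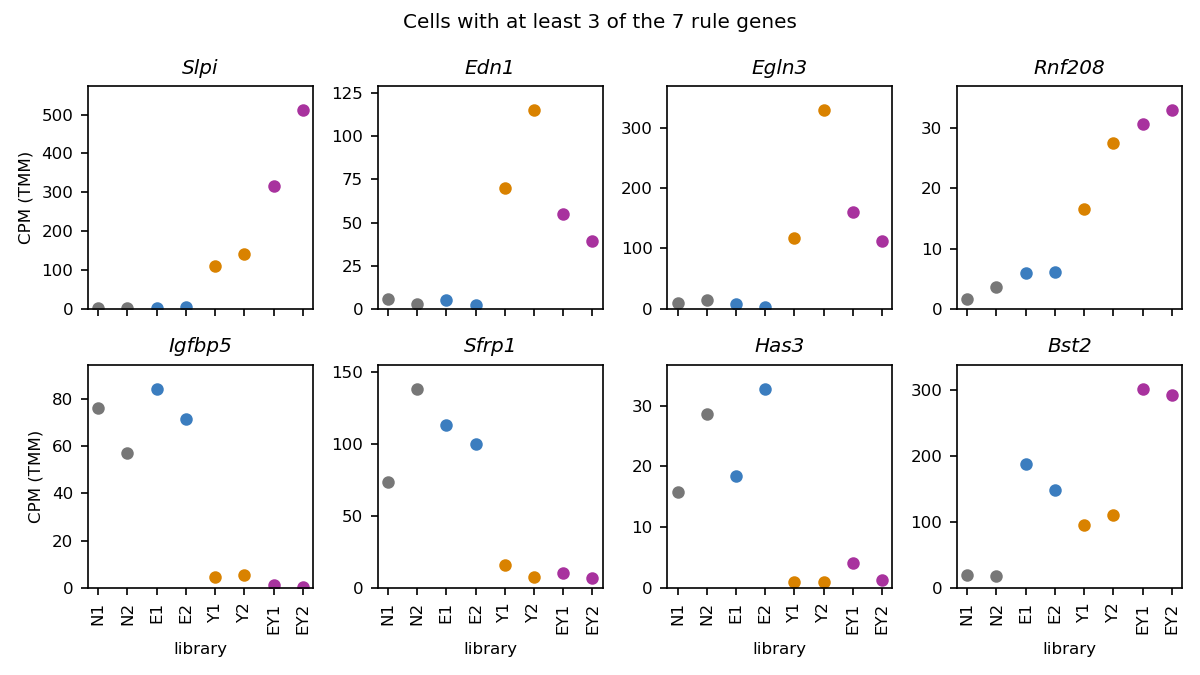
TMM-scaled CPM of 8 genes in cells with at least 3 of the 7 rule genes, summed per library, on linear axes from 0, with N in gray, E in blue, Y in orange and EY in purple. Slpi, Edn1, Egln3 and Rnf208 are higher and Igfbp5, Sfrp1 and Has3 lower in all 4 YAP1S127A libraries than in N and E, and Bst2 is lowest in N and highest in EY.

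The last comparison asked if the gap between members and the other cells of a library differs between genotypes. With the library as a block, 21 of 13126 genes passed for Y against EY (0.16%) and 93 for Y against N (0.709%). These rest on EY2 and N1 alone and on 1 residual degree of freedom. The 7 rule genes and 5 rule keratins were fitted too, so the counts may include calls that the selection itself sets. DESeq2 called 1 and 13, and without the library block edgeR called 0 and 0, with 96 and 601 genes at an unadjusted p below 0.05. The genes named against EY2 include small proline-rich genes of the cornified envelope. The log2 ratio of members over rest for Sprr1a was -3.71 in Y1, -4.24 in Y2 and -2.07 in EY2. Sprr2f was at 1.22 CPM in members against 8.41 in the rest of Y1, 4.21 against 61.5 in Y2 and 66.8 against 47.3 in EY2 (difference -4.22 ± 0.254 log2, edgeR adjusted p = 0.000532). In EY2, 3 members held 233 of the 282 Sprr2f UMIs, and the sign of the Sprr2f difference turned with at least 5 of the 7 genes (0.57). The differences of Sprr1a, Sprr2h and Sprr2d turned both with at least 3 genes (1.79, 0.35 and 0.0929) and with at least 5 (0.96, 0.76 and 0.31). Dcn and Mt3 differed in the other direction, with a deeper drop in EY2 members. S100a6 and S100a11 were higher in members of Y1 and Y2 by 0.23 to 0.49 log2, and by 0.15 and -0.12 in EY2.

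Against N1, Krt4 was at 1043 against 957 CPM in Y1 and 2192 against 1730 in Y2 but at 414 against 1114 in N1 (difference 1.80 ± 0.0911 log2, edgeR adjusted p = 3.8e-05). Mfsd14a, Scd2 (fatty acid desaturation) and Fdps (isoprenoid synthesis) likewise had a lower level in members of N1 and a higher one in members of Y1 and Y2. Krtdap and Mt3 were lower in members of all 3 libraries, most so in N1. The Krtdap difference turned with at least 3 genes (-0.92), without upper limits (-0.0289) and with at least 10 cells per library, where it passed in the opposite direction (-1.48, edgeR adjusted p = 6.3e-12), and that of Scd2 turned without upper limits (-0.0864). C3, Vim and Fn1 were higher in members of N1 by 6.24, 3.57 and 4.40 log2, but 1 member held all 62 C3 UMIs and all 17 Fn1 UMIs, and 52 of the 56 Vim UMIs were in 1 cell. Those 3 values thus describe 1 cell of N1. Igfbp5 was at 145 against 129 CPM in N1, in 27 of 46 members, and at 3.04 against 11.1 in Y1 and 4.30 against 19.9 in Y2.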

How the data were processed

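The authors deposited 1 matrix of UMI counts per gene and cell barcode for each of the 8 libraries, made with Cell Ranger 5.0.0 per the file headers (mm10 in the submitters' processing notes). The deposited counts are raw whole numbers. Library totals ran from 46483469 to 102427359 UMIs. Replicate numbers follow accession order and pair nothing. CPM are scaled to 1000000 UMIs of the summed cells. The log2 ratios of members over rest add 0.5 UMI. Counts summed per library were tested with edgeR 4.0.16 (R 4.3.3; filterByExpr, TMM, quasi-likelihood, Benjamini-Hochberg, 0.05), using libraries with at least 20 cells. The 7 rule genes and 5 rule keratins were fitted with the other genes, so every count of calls may include them. That 2 libraries of a group are separate animals comes from the study's methods. DESeq2 1.42.0 and Scrublet (scanpy 1.11.5) served as alternatives. On counts simulated with a log2 change of 2 in 200 genes, the test recovered 51.5% for members, Y against N (11413 genes), with 5 false calls. It recovered 74% for other gated cells (12960 genes), with 12 false calls. With at least 3 of the 7 genes it recovered 71.5% (10616 genes), with 13 false calls. These shares describe the simulated counts only. Whether the real libraries vary in the same way was not tested, so the shares are not detection rates for the real fits.

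The members, gene lists and comparisons were chosen with earlier results of these data known. Named genes were the rule genes, Yap1 and the keratins; the 20 highest and 12 lowest genes of members against rest with at least 50 CPM; per edgeR test the 6 largest rises and falls with at least 20 CPM and no overlap of libraries, applied to the cutoff of 3 genes too; and, per list, the 2 called genes of largest change and the 2 highest in members of Y. S100a8, Trp63, Mcm3, F3 and Cth in members against rest were picked after their values were seen. Cells were thinned by drawing UMIs without replacement (seed 1). Promoter windows came from RefSeq; none was used for H19 or Cdo1. A single gene of the 20 highest genes is not reported here.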

Additional observations from a re-analysis of the deposited data

Results flagged for a closer look

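These results stand here because the gap between members and the other gated cells differed between genotypes in a test of that difference (edgeR quasi-likelihood with the library as a block, 1 residual degree of freedom). For Y against EY, 21 genes were called, and the values are log2 differences of the gap, Y minus EY. They were 1.46 for Dcn, 1.28 for Mt3, 0.37 for S100a11 and 0.30 for S100a6. They were -4.22 for Sprr2f, -3.15 for Sprr2h, -3.12 for Sprr2d, -2.79 for Cxcl9, -1.99 for Sprr1a and -1.68 for Sprr1b. In EY2, 1011 Cxcl9 UMIs were spread over 63 of 211 members, while 61 of 83 Sprr2d UMIs lay in 1 cell. Sprr2f, Sprr2h, Sprr2d, Sprr1a, Sprr1b and Cxcl9 changed sign under at least 1 other setting.

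For Y against N, 93 genes were called. The differences were 2.81 for Mt3, 2.44 for Mfsd14a, 1.80 for Krt4, 1.66 for Krtdap, 1.65 for Scd2 and 1.61 for Fdps. They were -5.44 for C3, -4.66 for Vim, -4.25 for Fn1, -4.15 for Serpine2, -2.13 for Igfbp5 and -1.97 for E2f8. Krtdap and Scd2 changed sign under other settings, Krtdap to -1.48 with at least 10 cells per library and Scd2 to -0.0864 without upper limits. The N side of each main value is the single library N1 with 46 members. No cause was tested.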

How the results depend on the processing

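Mean member shares moved with the rule. With at least 3 of the 7 genes N had 9.38%, E 4.36%, Y 60.6% and EY 28.2%, and with at least 5 genes N had 0.208%, E 0.0123%, Y 18.4% and EY 1.89%. Thinned to 2000 UMIs they were 0%, 0%, 1.09% and 0.0493% in N, E, Y and EY, and thinned to 10000 UMIs (chosen after seeing the data) N had 0.985%, E 0.163%, Y 21.6% and EY 2.14%. Without upper limits they were 3.07%, 1.29% and 22.4% in N, E and EY. A keratin limit of 2% gave 0.645% in E, and a minimum of 200 genes gave 5.83% in EY. The 28 genes past 1.5-fold in both Y libraries became 563 at 2000 UMIs, and 55 to 100 when Y1 or Y2 was left out, since 1 library then decides.

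Calls for members, Y against N, Y against EY and EY against N, were 104, 146 and 367 with DESeq2, 1160, 2535 and 2667 with no filter on low counts, and 20, 9 and 1021 with at least 3 of the 7 genes. They were 2, 158 and 457 with Scrublet calls removed, and 16, 20 and 412 with at least 10 cells per library (added after seeing the data). Without upper limits Y against EY gave 2 and EY against N gave 4, and at least 5 genes gave 3 for Y against EY. Leaving out libraries gave 0 to 133 calls for Y against EY, with 133 without N1, and 0 for the others where it could be fitted. For the other gated cells, calls were 307 with DESeq2, 938 with no filter, 13 with at least 3 genes, 701 without upper limits, and 0 to 48 when libraries were left out, with 48 without Y1. For the difference between members and rest, Y against EY and Y against N, calls were 1 and 13 with DESeq2, 180 and 358 with no filter, 0 and 4 with at least 3 genes, 4 and 7 without upper limits, 0 and 0 without the library block, and 72 and 163 with at least 10 cells. Leaving out libraries gave 21 to 31 and 72 to 93. With 1 residual degree of freedom, Y1 or Y2 could not be left out of member fits, nor N1 or EY2 from a contrast that needs it, and at least 5 genes left no N library. N2, E1, E2 and EY1 held fewer than 20 members and were not in these fits, so leaving them out only repeated the main result.

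Some gene differences changed sign. With at least 3 genes Sprr2h was 0.35, Sprr2d 0.0929, Sprr1a 1.79, Sprr1b 0.71 and Krtdap -0.92. With at least 5 genes Sprr2f was 0.57, Sprr2h 0.76, Sprr2d 0.31 and Sprr1a 0.96. Without upper limits Cxcl9 was 0.47, Krtdap -0.0289 and Scd2 -0.0864, and Krtdap was -1.48 with at least 10 cells, a call in the opposite direction (edgeR adjusted p = 6.3e-12). Of the other values of named genes, 180 kept direction and side of the threshold and 81 only the direction. Those 180 include the values without N2, E1, E2 or EY1, which repeat the main fit and are no separate check. The cause was not tested. No paired analysis was possible because the labels give no replicate numbers shared between groups.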
